A study of Mus musculus with 48 samples.

Results

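The libraries described here are the 4 from tumour cells given IFNγ at 100 ng/ml together with TNF at 10 ng/ml, called the combination, and the 4 from unstimulated cells, 8 of 48 libraries in all. They were chosen by their stimulus labels (written IFNy and TNFa there), and each combination library was set against the unstimulated library of the same duration of 2, 6, 12 or 24 h. All 8 came from NMM, a mouse melanoma line labelled as NRAS mutated and grown in vitro in IMDM medium with fetal calf serum, so the controls carry the same mutation and saw the same medium. NMM is 1 line, each stimulus and duration has 1 library, and the labels do not say whether the libraries came from separate cultures. Unless stated otherwise, the p-values below come from a fit of all 48 libraries. They measure only how far differences between stimuli vary over the durations, pooled over all stimuli. That spread mixes changes over time with differences that may be technical. Cells given 100 ng/ml IFNγ alone or 10 ng/ml TNF alone, 4 libraries each at the same durations, serve as a second reference at the end. The series title concerns cytokines that CD8+ T cells release in tumours, and the comparison asks which transcripts a tumour cell changes when it receives both.

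IFNγ binds a receptor of the IFNGR1 and IFNGR2 chains, which activates the kinases JAK1 and JAK2. Transcription factors downstream of these kinases act on GAS elements and induce IRF1, which in turn acts on interferon-stimulated response elements (ISRE). TNF binds TNFR1, whose adaptors and kinases release NF-κB dimers from their inhibitors, so that they reach κB sites. In tumour cells both pathways are known to raise antigen presentation, chemokines, adhesion molecules and regulators of cell death, and each induces its own inhibitors.

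The starts of 5 genes on which the results below turn hold these elements, and they are printed because they show them singly and side by side. Of the 3 patterns searched, the windows printed for Irf1 and Irf8 matched only that of GAS, and the window of Nfkbia only that of κB. Cxcl10 matched the ISRE and κB patterns, and Igtp the GAS and ISRE patterns. The sequences run 5′ to 3′ on the gene's strand from 250 bases before to 50 bases after a RefSeq start site (GRCm38.p6), with matches in capitals. A second start site listed for Irf1, and one for Irf8, held none of the 3 patterns and is not printed.
Irf1, chr11:53769764-53770063, plus strand, GAS from -90 to -82: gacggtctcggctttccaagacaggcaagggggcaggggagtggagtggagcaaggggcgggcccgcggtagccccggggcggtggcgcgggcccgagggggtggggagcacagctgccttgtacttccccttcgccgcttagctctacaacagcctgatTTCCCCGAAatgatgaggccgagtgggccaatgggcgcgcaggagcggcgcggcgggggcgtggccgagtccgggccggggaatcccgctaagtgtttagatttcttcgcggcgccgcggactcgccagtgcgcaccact
Irf8, chr8:120736108-120736407, plus strand, GAS from -171 to -163 and from -153 to -145: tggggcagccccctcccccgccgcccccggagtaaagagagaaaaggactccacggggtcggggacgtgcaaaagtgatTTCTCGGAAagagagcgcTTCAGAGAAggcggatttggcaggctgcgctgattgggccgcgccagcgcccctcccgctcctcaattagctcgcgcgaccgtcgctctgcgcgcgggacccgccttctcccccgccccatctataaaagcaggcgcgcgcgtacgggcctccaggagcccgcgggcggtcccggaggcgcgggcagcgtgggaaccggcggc
Cxcl10, chr5:92348840-92349139, minus strand, ISRE from -213 to -204 and κB from -159 to -150: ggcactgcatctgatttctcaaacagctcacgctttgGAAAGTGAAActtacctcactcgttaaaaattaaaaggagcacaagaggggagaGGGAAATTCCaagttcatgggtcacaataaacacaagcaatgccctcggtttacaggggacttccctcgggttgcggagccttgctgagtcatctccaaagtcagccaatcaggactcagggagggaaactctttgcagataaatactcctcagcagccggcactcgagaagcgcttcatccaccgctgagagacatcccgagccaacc
Igtp, chr11:58199306-58199605, plus strand, GAS from -45 to -37 and ISRE from -34 to -25: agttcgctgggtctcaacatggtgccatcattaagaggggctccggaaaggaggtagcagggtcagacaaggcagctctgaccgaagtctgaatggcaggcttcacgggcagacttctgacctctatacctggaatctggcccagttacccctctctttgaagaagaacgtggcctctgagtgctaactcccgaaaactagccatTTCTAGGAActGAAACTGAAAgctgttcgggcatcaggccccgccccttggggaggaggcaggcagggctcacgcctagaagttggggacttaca
Nfkbia, chr12:55492598-55492897, minus strand, κB from -29 to -20: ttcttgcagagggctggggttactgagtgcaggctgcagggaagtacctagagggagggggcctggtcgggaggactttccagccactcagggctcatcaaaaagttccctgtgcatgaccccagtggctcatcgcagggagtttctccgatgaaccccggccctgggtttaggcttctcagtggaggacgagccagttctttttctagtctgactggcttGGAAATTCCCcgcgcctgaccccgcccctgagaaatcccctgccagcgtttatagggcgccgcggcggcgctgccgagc

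A GAS element was searched as TTCNNNGAA, which reads the same on both strands. The ISRE was searched as GAAA, any 2 bases, GAAA, and the κB site as GGGA, any 2 bases, TTCC, both on either strand. These patterns can overlap one another, and a match is a string of letters and no evidence of binding. Variant sites outside the patterns were not searched, so a window without a match may still hold such an element. Of 32851 promoters of this length in the RefSeq table, 8.3% held the GAS pattern, 3.44% the ISRE pattern and 1.47% the κB pattern. Among 281 promoters of genes at least 4-fold higher with the combination, the shares were 14.2%, 15.7% and 5.69%, against 6.9%, 3.27% and 1.49% for all 11644 promoters of tested genes. Among 297 promoters of genes at least 2-fold lower they were 7.07%, 2.02% and 1.35%. The windows of Cxcl9, Tap1, Psmb9, Cd274, Acod1, Tnfaip3 and Birc3 held none of the 3 patterns.

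The 8 libraries held 6046675 to 9663207 counts, and 1 count was worth 0.103 to 0.165 CPM, the count scaled to a common library total. Mitochondrial transcripts took 1.17%, 1.2%, 0.786% and 0.964% of counts in unstimulated cells and 1.27%, 0.959%, 0.616% and 0.513% with the combination at 2, 6, 12 and 24 h, the order of durations kept throughout. The melanocyte genes Tyr, Tyrp1, Dct, Mlana and Sox10 had 0 counts in all 8 libraries, so the labelled melanoma origin is not visible in these genes. Of the 21 listed melanocyte genes, 7 passed the filter on low counts. Their summed level was 672, 599, 498 and 557.5 CPM unstimulated and 676, 568, 497 and 483 CPM with the combination. None of 15 T and NK cell markers passed the filter on low counts, and of the marker lists of macrophages, endothelium and keratinocytes 1 of 12, 1 of 8 and 2 of 8 did. Of 10 fibroblast markers 5 passed, and they are described with the matrix genes below. Their summed level was 402, 345, 394 and 517 CPM unstimulated and 370.4, 189, 142 and 78.9 CPM with the combination. The interferon genes stood higher in the unstimulated 12 h library than in the other unstimulated ones: it was the highest of the 4 for all 13 tested Ifit and Oas genes, all 11 immunity-related GTPases and 9 of 10 Gbp genes, against 23.6% of all genes tested. Changes at 12 h are therefore measured against a raised baseline, and what this adds to each result was not tested. Without the 12 h libraries the numbers of higher Gbp and immunity-related genes were the same, and 12 of 13 Ifit and Oas genes were higher.

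The combination changed a large part of the transcriptome, and the strongest changes were increases. Of 12203 genes tested, 2546 (20.9%) were called higher and 2583 (21.2%) lower, 5129 (42%) in either direction, by edgeR's quasi-likelihood test with Benjamini-Hochberg adjustment at 0.05. This test takes the mean over the 4 durations and is the test meant by "adjusted p" below. Increases of at least 4-fold numbered 321 and decreases of that size 21, and all 89 called changes of at least 16-fold were increases. Fitted on the 8 libraries alone, 1301 of 11374 genes (11.4%) were higher and 723 (6.36%) lower. Counts of list members below are to be read beside the shares for the fit used, also where these are not repeated. The 4 combination libraries all lay above the 4 unstimulated ones for 1067 genes (8.74%) and all below for 676 (5.54%).

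The response widened with the hours. At 2 h, 299 genes (2.98%) were at least 2-fold higher and 72 (0.719%) lower where 1 library of the pair reached 5 CPM, a count with no test. At 6 h the numbers were 655 (6.46%) and 161 (1.59%), at 12 h 695 (6.84%) and 339 (3.34%), and at 24 h 861 (8.35%) and 541 (5.25%). The genes called at least 2-fold higher took 3.39%, 3.14%, 4.25% and 3.2% of all CPM in unstimulated cells and 8.26%, 12.9%, 16.2% and 15% with the combination. The genes called at least 2-fold lower took 1.06%, 0.901%, 0.831% and 0.965% against 0.772%, 0.408%, 0.272% and 0.255%. These 2 sets were chosen on the same values, so the shares describe them and test nothing.

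**Figure D1:**
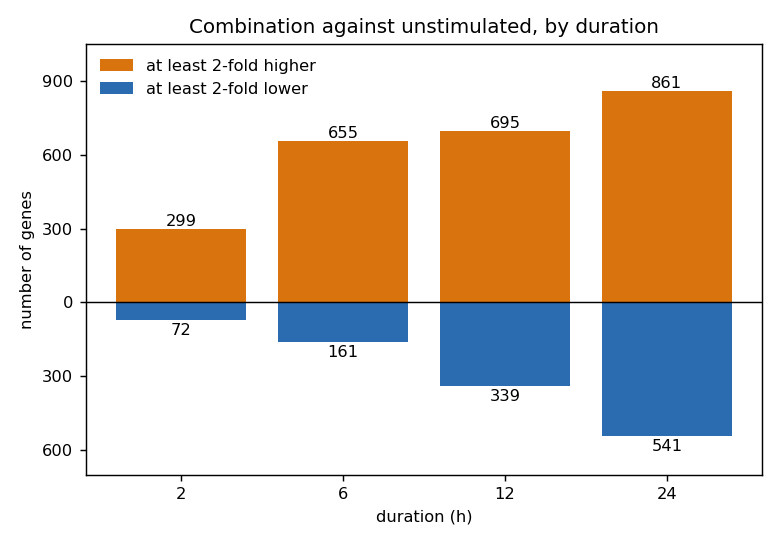
Genes at least 2-fold higher (bars above 0) or lower (bars below 0) with the combination at each duration where 1 library of the pair reached 5 CPM; 1 library per stimulus and duration, no test. Both directions grow, from 299 and 72 genes at 2 h to 861 and 541 at 24 h.

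A trend over time was fitted as the change of the combination effect per doubling of the hours. It was called growing for 981 genes (8.04%) and falling for 1144 (9.37%), where falling means that the combination moved lower relative to unstimulated cells. Of the genes with a higher mean, 646 had a growing and 61 a falling trend, and of those with a lower mean 765 had a falling and 23 a growing one. Genes whose trend was called without a call on the mean numbered 312 growing and 318 falling. Among the genes called at least 2-fold higher, the largest single-duration ratio stood at 2 h for 60, at 6 h for 230, at 12 h for 131 and at 24 h for 348.

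The 10 largest ratios at 2 h belonged to Cxcl9, Icam1, Acod1, Ccrl2, Irf8, Irf1, Slc2a6, Cxcl11, Cd274 and Apol6. Slc2a6, a sugar transporter of lysosomes, had a log2 ratio of 5.28, beside Ccrl2, a receptor that presents chemerin (5.67) and Apol6 (4.87). Among the 10 largest decreases at 2 h were Fbxo32 (-1.96), the water channel Aqp5 (-1.74), Trib2 (-1.59) and Bmf (-2.12), and all these ratios come from 1 library per group, with no test. Batf2, an AP-1 family factor of interferon-treated cells, stood at 0.718, 0.494, 0.482 and 0.13 CPM unstimulated and at 19.3, 126, 155 and 189.6 CPM with the combination over the 4 durations (7.96 ± 0.44, adjusted p = 2.25e-16), with a low baseline in each library. By amount of RNA, the 10 largest gains in mean CPM included Odc1, the first enzyme of polyamine synthesis, which stood at 2094, 1642, 1996 and 2937 CPM unstimulated and at 3058, 3718, 4287 and 4633 CPM with the combination (0.88 ± 0.10, adjusted p = 2.31e-09), and Cmpk2, a mitochondrial nucleotide kinase (2.46 ± 0.38).

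Transcripts of the IFNγ signalling chain itself rose. All 13 tested genes for the receptor, the JAK kinases, the STAT factors and the IRFs were higher, with a median log2 change of 1.0 beside -0.028 for all genes tested (11 higher on the 8 libraries alone). Irf1, a transcription factor induced early by IFNγ (chromosome 11, 53770014 to 53778374 in GRCm38), stood at 26.4, 28.5, 52.7 and 38 CPM in unstimulated cells and at 1072, 880.5, 779 and 776 CPM with the combination, and the groups were far apart at each duration (4.61 ± 0.31, adjusted p = 8.95e-14, log2 mean over durations with its approximate standard error). Its level was highest at 2 h. Irf8, an IRF best known from immune cells, rose from 6.74, 10.2, 14.3 and 24 CPM to 301, 173, 75.6 and 74.5 CPM (3.44 ± 0.48, adjusted p = 5.53e-07). The 2 h library was the highest by far, and the effect on Irf8 moved by -1.09 ± 0.16 per doubling of the hours (adjusted p = 4.25e-05 for the trend). Smaller increases were measured for the kinase Jak2 (1.48 ± 0.12), the receptor chain Ifngr2 (0.85 ± 0.11), Stat3 (1.97 ± 0.26) and Irf2, which opposes Irf1 at shared sites (1.37 ± 0.20).

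Negative regulators of cytokine signalling rose with it: 8 of 12 feedback genes were higher and 1 lower (median 0.87). Socs1, which binds and blocks JAK kinases, stood at 6.31, 7.03, 7.72 and 6.74 CPM unstimulated and at 40.5, 43.5, 27 and 37.4 CPM with the combination (2.42 ± 0.26, adjusted p = 1.37e-09). Socs3, which acts mainly on gp130 receptors, stood at 16.6, 15.5, 15.9 and 15 and at 136, 128, 96 and 108 CPM (2.89 ± 0.16, adjusted p = 4.5e-17). Neither gene's groups overlapped. Cish, another member of this family, rose by 2.42 ± 0.29, and the phosphatase Ptpn2, which removes phosphate from JAK and STAT proteins, by 0.79 ± 0.093.

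Genes of the TNF receptor and the NF-κB family rose in the same way, 16 of 21 higher (median 0.63). Tnfrsf1b, the second TNF receptor, stood at 29.4, 33.7, 31.8 and 36.8 CPM in unstimulated cells and at 54.3, 58.1, 46.8 and 45.4 CPM with the combination (0.63 ± 0.12, adjusted p = 3.04e-05). Nfkb2, the precursor of the p52 subunit, stood at 80.2, 82.2, 81 and 72.6 and at 230.4, 304, 303 and 293 CPM (1.84 ± 0.15, adjusted p = 1.57e-12). Relb, its usual partner, stood at 29.1, 15.5, 17.4 and 15.2 and at 79.8, 82.2, 76.3 and 83.4 CPM (2.12 ± 0.17, adjusted p = 1.41e-12). All 3 had groups that did not overlap. Birc3, a ubiquitin ligase at the TNF receptor that protects from cell death, rose by 2.77 ± 0.20, Traf1, an adaptor there, by 5.93 ± 0.55, Nfkb1 by 1.47 ± 0.17 and Rela by 0.77 ± 0.10.

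The inhibitors of NF-κB moved with the factors they restrain: 11 of 13 were higher (median 1.57). Nfkbia, which encodes IκBα, stood at 29, 15.7, 14 and 13.2 CPM unstimulated and at 186, 201, 150.0 and 130.4 CPM with the combination (3.27 ± 0.19, adjusted p = 1.36e-15). Tnfaip3, which encodes the deubiquitinase A20, stood at 74, 50.6, 26 and 26.9 and at 474, 385, 175 and 152 CPM (2.73 ± 0.18, adjusted p = 1.37e-14). Both were above every unstimulated library at all 4 durations, with no return to baseline by 24 h. Tnip3, which works with A20, rose by 4.73 ± 0.37, Nfkbie by 3.28 ± 0.29, Bcl3 by 2.35 ± 0.25 and Nfkbiz by 1.22 ± 0.13.

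**Figure D2:**
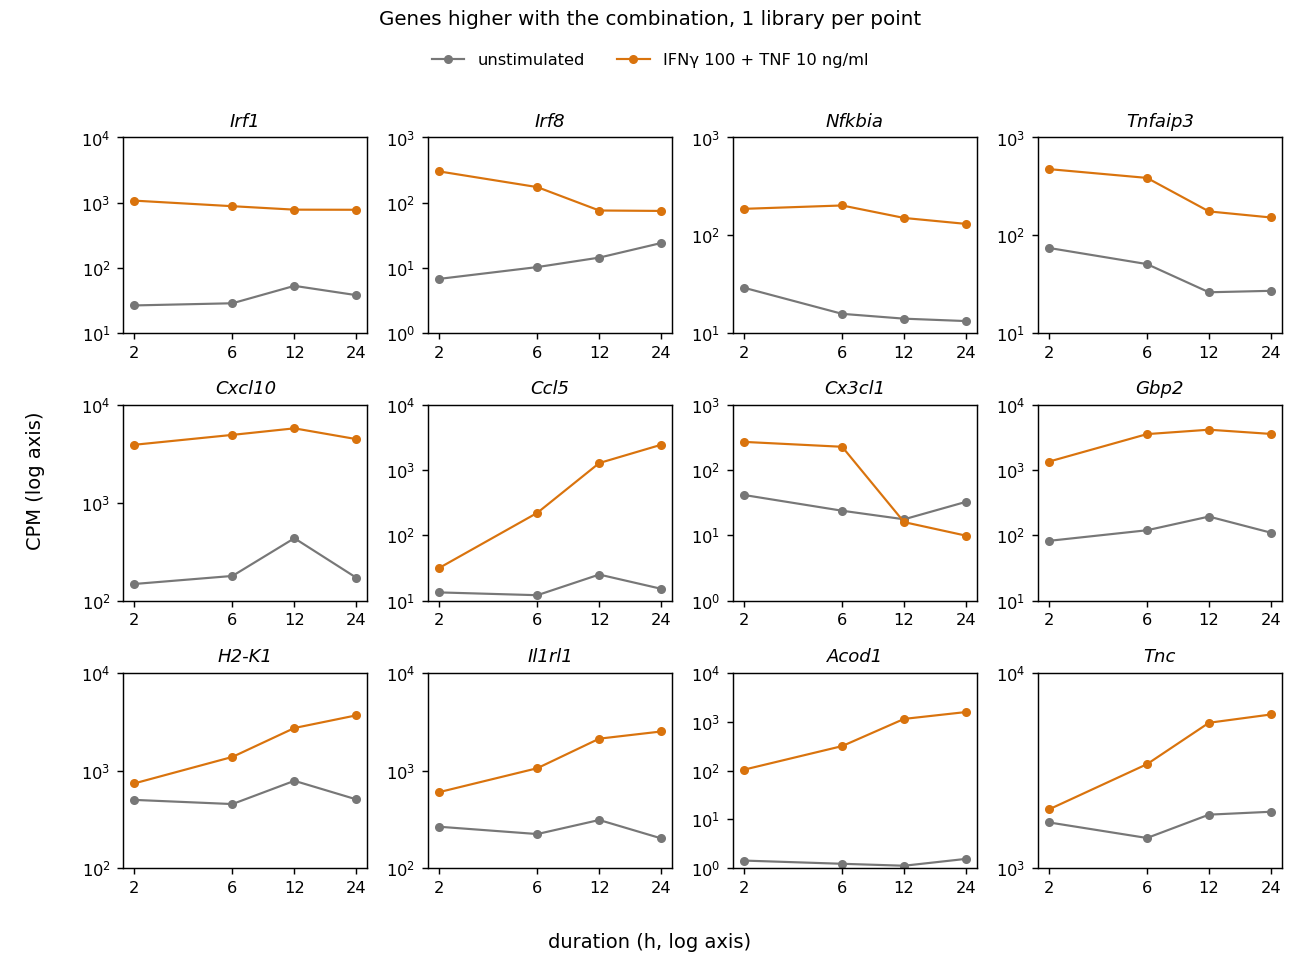
CPM on a log axis against hours (log axis) for 12 genes, each point 1 library; grey, unstimulated; orange, the combination. Irf1, Irf8 and Cx3cl1 are highest at 2 h or 6 h, Nfkbia and Tnfaip3 stay raised, and Ccl5, H2-K1 and Il1rl1 are highest at 12 h or 24 h.

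Chemokines were among the strongest increases. All 5 chemokines that draw T cells rose, with a median of 5.28, and the number was the same under each of the 12 alternative analyses. Cxcl10, a ligand of CXCR3, stood at 148, 179, 435 and 171 CPM in unstimulated cells and at 3928, 4960.4, 5787 and 4489 CPM with the combination (4.51 ± 0.43, adjusted p = 3.47e-10). Its 12 h baseline was the highest of the 4, and the lowest combination library still exceeded it. Ccl5, a chemokine for T cells and monocytes (chromosome 11, 83525778 to 83530518), rose from 13.3, 12.1, 25.1 and 15.2 CPM to 31.6, 222, 1291 and 2465 CPM (5.28 ± 0.64, adjusted p = 3.5e-08). The climb went on to 24 h, and the effect grew by 1.66 ± 0.22 per doubling of the hours (adjusted p = 1.45e-05). Cxcl11, a further CXCR3 ligand, had a total of 1 count over the unstimulated libraries and stood at 12.9, 84.4, 212 and 202 CPM with the combination (3750.0-fold, 95% interval 673 to 1.48e+05). Cxcl16, a chemokine with a membrane-bound form, rose by 5.16 ± 0.50.

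Myeloid chemokines rose as well, 8 of 8 for monocytes (median 2.5, 5 to 8 higher over the 12 alternatives) and 2 of 3 for neutrophils. Ccl2, which draws monocytes through CCR2, stood at 37.5, 15.9, 30.7 and 22.7 CPM unstimulated and at 1073, 1773, 2559.6 and 2199.5 CPM with the combination (6.24 ± 0.56, adjusted p = 7.73e-11). Cxcl1, a neutrophil chemokine, stood at 1.87, 1.48, 1.45 and 0.518 and at 36, 29.1, 16.9 and 26 CPM (4.48 ± 0.42, adjusted p = 9.22e-11). Ccl7 rose by 4.34 ± 0.44 and Ccl4 by 5.5 ± 0.57. Cx3cl1, a membrane-anchored chemokine, showed a transient course: it stood at 41.8, 23.9, 17.7 and 32.8 CPM unstimulated and at 273, 229, 16 and 9.91 CPM with the combination (1.76 ± 0.54, adjusted p = 0.00868). Within the 12 h and 24 h libraries it was called lower (-0.99, adjusted p = 0.0285), and it was not called on the 8 libraries alone (adjusted p = 0.353), without the 2 h libraries (0.12) or without the 6 h libraries (0.267).

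Of 12 tested secreted cytokines, 9 rose (median 2.29). Il15, which sustains CD8+ T and NK cells, stood at 0.143, 0.74, 1.45 and 0.648 CPM unstimulated and at 3.05, 12.3, 23.8 and 25.6 CPM with the combination (4.37 ± 0.44, adjusted p = 2.4e-10), and its presenting receptor chain Il15ra rose by 5.49 ± 0.37. Il6, an inflammatory cytokine, stood at 2.15, 1.6, 3.05 and 1.17 and at 15.5, 57.6, 133 and 52.8 CPM (4.89 ± 0.59, adjusted p = 3.88e-08). The groups did not overlap for either. Il18, an IL-1 family cytokine, rose by 2.22 ± 0.37, Il1rn, the antagonist of the IL-1 receptor, by 4.92 ± 0.51, Lif by 1.84 ± 0.15 and Tnfsf10, which encodes the death ligand TRAIL, by 3.85 ± 0.57.

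The interferon-inducible GTPases, which attack membranes around intracellular pathogens, rose without exception: 10 of 10 guanylate-binding proteins (median 4.73) and 11 of 11 immunity-related GTPases (median 3.53), under all 12 alternatives too. Gbp2 stood at 82.5, 120.0, 195 and 110.1 CPM in unstimulated cells and at 1356, 3590.0, 4195 and 3613 CPM with the combination (4.63 ± 0.38, adjusted p = 6.77e-12). Igtp stood at 61.6, 83, 154 and 94.8 and at 742, 1293, 1263 and 1128 CPM (3.53 ± 0.30, adjusted p = 1.57e-11). Both had their highest unstimulated value at 12 h, which was still below every combination library. The medians of the Gbp list were 3.02, 4.39, 4.04 and 4.79, and those of the immunity-related list 3.13, 3.57, 2.72 and 3.25. Members of both families are close paralogs and may hold one another's reads.

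**Figure D3:**
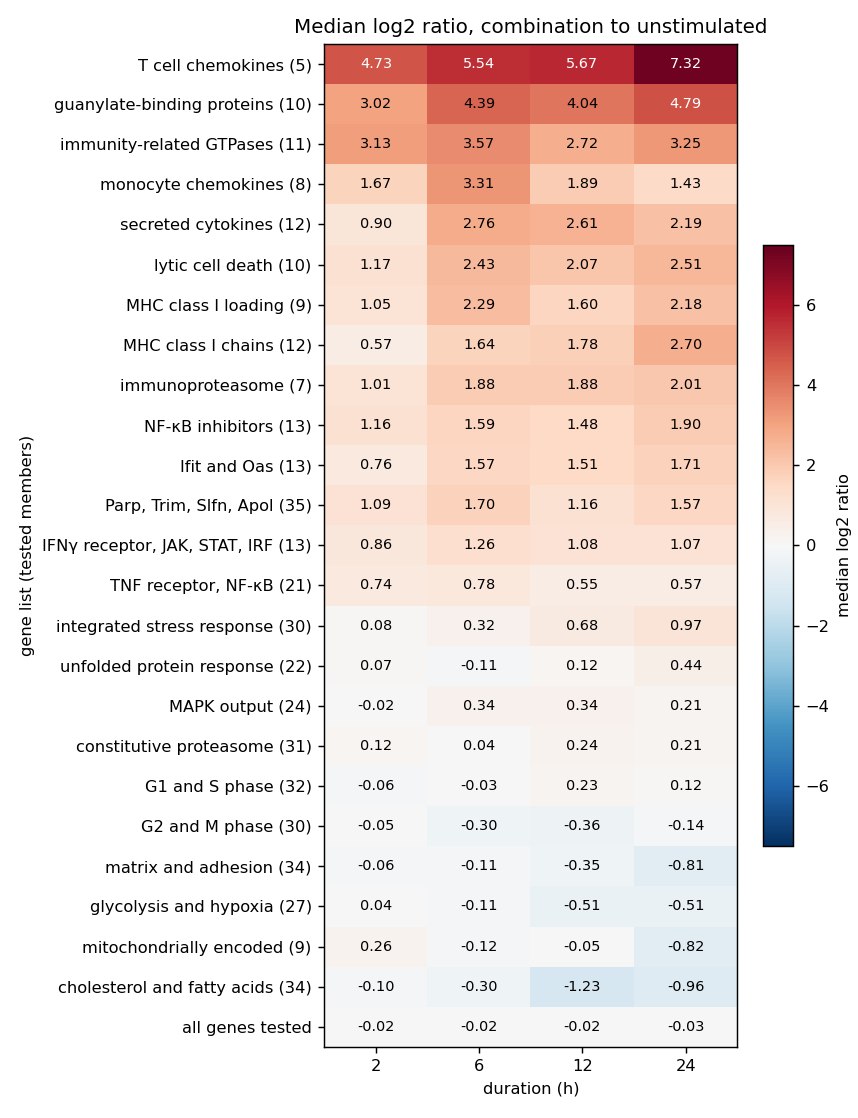
Median log2 ratio of combination to unstimulated over the tested members of 24 gene lists at each duration, as colour and as the printed value; the bottom row gives all genes tested. Interferon and chemokine lists are high from 2 h on, MHC class I chains climb from 0.57 to 2.7, and the cholesterol list is lowest at 12 h and 24 h.

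MHC class I genes were higher with the combination, most of all at the later hours. Of 12 heavy chain genes with B2m, 10 were higher and 1 lower, and the list medians were 0.57, 1.64, 1.78 and 2.7. H2-K1, a classical heavy chain (chromosome 17, 33996017 to 34000333 in GRCm38), stood at 501, 454, 785 and 507 CPM unstimulated and at 738, 1378, 2723 and 3669.6 CPM with the combination (1.75 ± 0.28, adjusted p = 5.86e-06). B2m, the invariant chain, stood at 1468, 1389.9, 1645 and 1416 and at 1964, 2237, 2980.2 and 3043 CPM (0.77 ± 0.093, adjusted p = 1.24e-08). At 2 h H2-K1 still lay within the range of the unstimulated libraries, while B2m lay above it at every duration. The trend was called growing for 9 of the 12 (0 to 9 growing over the 10 alternatives for the trend, with 0 without the 2 h libraries and 4 without the 24 h libraries). H2-T23, a non-classical ligand of NKG2A, rose by 1.91 ± 0.27 and H2-M3 by 2.5 ± 0.27. H2 genes resemble one another and may share reads.

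Transcripts for peptide supply rose too: 6 of 9 loading genes and 6 of 7 immunoproteasome genes were higher. Nlrc5, the transactivator of MHC class I, stood at 55.7, 69.7, 142 and 84.2 CPM unstimulated and at 312, 430.3, 431 and 405 CPM with the combination (2.23 ± 0.26, adjusted p = 1.88e-08). Tap1, a chain of the peptide transporter, stood at 71.5, 94.8, 179 and 111 and at 352, 645, 571 and 504 CPM (2.23 ± 0.24, adjusted p = 2.17e-09). Psmb9, an inducible catalytic subunit, stood at 7.89, 6.66, 16.1 and 9.33 and at 23.5, 88.2, 142 and 131 CPM (3.19 ± 0.29, adjusted p = 5.09e-11). Every combination library lay above every unstimulated one for all 3 genes. Erap1, which trims peptides, rose by 1.4 ± 0.18 and Psme2, a proteasome activator subunit, by 1.71 ± 0.16. Of 31 constitutive proteasome genes, 15 were higher, beside 20.9% of all genes tested, with a median of 0.15. The count was 2 to 22 higher over the 12 alternatives, with 9 higher without the 12 h libraries. On the 8 libraries alone 3 were higher, beside 11.4% of all genes. Ciita, the transactivator of MHC class II, went from a total of 2 to a total of 40 counts (18.7-fold, 95% interval 4.86 to 159.9).

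Genes that tumour cells use to engage or restrain lymphocytes were mixed, 7 of 11 tested checkpoint and adhesion genes higher and 1 lower (0 to 2 lower over the 12 alternatives, with 0 lower without the 12 h libraries and 0 lower without the 24 h libraries). Cd274, which encodes PD-L1, stood at 15.6, 33.6, 63.5 and 35.5 CPM unstimulated and at 495, 856, 1003 and 858 CPM with the combination. Icam1, an integrin ligand, stood at 0.431, 0, 0.161 and 0 and at 62.7, 29, 2.02 and 0.891 CPM. Vcam1, a further one, stood at 7.46, 9.13, 6.43 and 4.41 and at 174, 259, 256 and 181 CPM (5.07 ± 0.40, adjusted p = 3.5e-12). Cd274 was high from 2 h through 24 h, and Vcam1 likewise, whereas Icam1 was highest at 2 h and lowest at 24 h, where it was still above every unstimulated library. Clec2d, a ligand of an inhibitory NK cell receptor, rose by 2.56 ± 0.23, and Pvr, a ligand of TIGIT and CD226, by 0.45 ± 0.063. All 5 tested granzyme-inhibiting or related serpins were higher (3 to 5 higher over the 12 alternatives): Serpinb9, which inhibits granzyme B, stood at 4.45, 5.18, 4.82 and 4.15 and at 8.56, 22, 22.5 and 17.5 CPM (1.92 ± 0.24, adjusted p = 3.22e-08), and Serpina3g, of a family whose members may share reads, went from a total of 1 to a total of 477 counts (446-fold, 95% interval 79.8 to 1.77e+04).

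Genes of lytic cell death rose, and so did part of those of extrinsic apoptosis. Of 16 genes of extrinsic apoptosis, 9 were higher and 1 lower (median 0.20), and 9 of 10 tested genes of lytic death were higher (median 2.22), also under all 12 alternatives. The inflammasome genes Nlrc4, Pycard and Mefv had 0 counts in all 8 libraries. Mlkl, the pore-forming effector of necroptosis, stood at 129, 129, 230.4 and 149 CPM unstimulated and at 219, 419.6, 684 and 562 CPM with the combination (1.51 ± 0.18, adjusted p = 2.42e-08). Zbp1, a nucleic acid sensor upstream of it, stood at 42.3, 46.6, 159.7 and 69.2 and at 108, 256, 557 and 504 CPM (2.13 ± 0.32, adjusted p = 1.91e-06). Aim2, a sensor of cytosolic DNA, stood at 0.861, 1.36, 3.22 and 2.2 and at 2.32, 4.61, 12.1 and 12.1 CPM (1.98 ± 0.31, adjusted p = 1.51e-06). In each of the 3, every combination library exceeded its unstimulated library of the same duration. Casp8, the initiator caspase of death receptors, rose by 1.02 ± 0.11, its inhibitor Cflar by 0.74 ± 0.071, and Ninj1, which ruptures the plasma membrane, by 1.37 ± 0.12.

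Of 13 BCL2 family genes, 4 were higher and 4 lower (2 to 6 higher and 2 to 5 lower over the 12 alternatives), beside 20.9% and 21.2% of all genes tested, so nothing is read from the counts. Bid, which caspase-8 cleaves, rose by 0.96 ± 0.12 and the pore former Bak1 by 0.90 ± 0.090. Bmf, a BH3-only activator of apoptosis, stood at 7.18, 4.07, 4.66 and 5.7 CPM unstimulated and at 1.45, 0.461, 0.621 and 0.334 CPM with the combination (-2.99 ± 0.37, adjusted p = 2.53e-08). Bcl2l11, which encodes the related BIM, stood at 18.8, 17.8, 27.2 and 25 and at 64.1, 52.8, 52.3 and 69.95 CPM (1.45 ± 0.13, adjusted p = 3.5e-12). Bmf fell and Bcl2l11 rose, and in neither did the groups overlap.

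Enzymes that turn metabolites into effectors rose: 10 of 14 genes for nitric oxide, tryptophan, itaconate and related products were higher and 2 lower (0 to 2 lower over the 12 alternatives, with 1 lower without the 6 h libraries, 0 lower without the 12 h libraries and 0 lower without the 24 h libraries). Acod1, which makes itaconate (chromosome 14, 103046977 to 103056573 in GRCm38), stood at 1.44, 1.23, 1.13 and 1.55 CPM unstimulated and at 104, 316, 1138 and 1574 CPM with the combination (8.89 ± 0.66, adjusted p = 7.23e-13). Nos2, the inducible nitric oxide synthase, had 0 counts in all 4 unstimulated libraries and stood at 2.47, 24.9, 19.7 and 35.6 CPM with the combination. Its level was lowest at 2 h and highest at 24 h. Gch1, which supplies its cofactor, rose by 1.03 ± 0.14, Ass1, which recycles citrulline to arginine, by 3.92 ± 0.64, Wars, the tryptophanyl-tRNA synthetase, by 1.92 ± 0.14, and Ch25h, cholesterol 25-hydroxylase, by 4.41 ± 0.46.

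Redox and iron genes went both ways, 10 higher and 7 lower of 25 (5 to 11 higher and 1 to 10 lower over the 12 alternatives), beside 20.9% and 21.2% of all genes tested. Sod2, the mitochondrial superoxide dismutase, stood at 45.1, 53.2, 43.7 and 34.7 CPM unstimulated and at 167, 212, 145 and 130.4 CPM with the combination (1.88 ± 0.088, adjusted p = 1.61e-19), with no overlap between groups. Mt2, a metallothionein, rose by 2.0 ± 0.15, and Slc11a2, an iron transporter, by 0.86 ± 0.083.

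Antiviral effectors shared with type I interferon rose broadly. All 13 tested Ifit and Oas genes were higher (median 1.47), as were all 35 tested genes of the Parp, Trim, Slfn and Apol lists (median 1.33), and 21 of 27 Mx, Ifitm and other effectors (4 lower, 1 to 4 lower over the 12 alternatives, with 2 lower without the 6 h libraries, 1 lower without the 12 h libraries and 1 lower without the 24 h libraries). Rsad2, which encodes viperin, stood at 411, 323, 968 and 553 CPM unstimulated and at 1544, 2492, 5107 and 3748 CPM with the combination (2.54 ± 0.35, adjusted p = 4.96e-07). Ifit2, which binds foreign RNA, stood at 210.2, 217, 478 and 270.0 and at 751, 2511, 3994 and 2601 CPM (2.97 ± 0.41, adjusted p = 4e-07). The unstimulated 12 h library was the highest of its group for both. Ubd, a ubiquitin-like modifier, had a total of 1 count over the unstimulated libraries and stood at 5.51, 33.7, 29.98 and 34.1 CPM with the combination (777-fold, 95% interval 139 to 3.07e+04). Parp14, an ADP-ribosyltransferase, rose by 2.48 ± 0.28 and Oas1a by 0.97 ± 0.17.

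Many genes for receptors that widen what a cell can sense rose. Of 19 cytokine receptors, 14 were higher and 2 lower (7 to 15 higher over the 12 alternatives). Of 16 Toll, Nod and IL-1 family receptors and adaptors, 8 were higher and 2 lower, with list medians of 0.535, 0.677, 0.335 and 0.298. The latter list had 1 to 3 lower over the 12 alternatives, with 1 lower without the 6 h libraries and 1 lower without the 12 h libraries. Both lists stand beside 20.9% higher and 21.2% lower of all genes tested. Il1rl1, the receptor of IL-33, stood at 266, 224, 312 and 202 CPM unstimulated and at 601, 1056, 2118 and 2508 CPM with the combination (2.56 ± 0.28, adjusted p = 5.47e-09). Its effect grew by 0.67 ± 0.074 per doubling of the hours (adjusted p = 6.92e-07). Tlr2, a receptor of bacterial lipoproteins, stood at 4.16, 1.97, 4.02 and 2.33 and at 72.8, 92.3, 109 and 88.6 CPM (4.92 ± 0.34, adjusted p = 5.7e-14), and Osmr, the receptor of oncostatin M, rose by 2.54 ± 0.23. Among complement and acute phase genes 6 of 11 were higher and 1 lower, beside the same 20.9% and 21.2%. C4b stood at 0.287, 0.617, 1.13 and 0.13 and at 1.45, 5.3, 14 and 13.8 CPM (3.9 ± 0.54, adjusted p = 2.86e-07), and C1s1, the protease that cleaves C4, rose by 6.24 ± 0.55.

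The genes that fell were fewer in large steps and mostly late. Trib2, a pseudokinase (chromosome 12, 15791727 to 15816877 in GRCm38), stood at 63.6, 57.7, 68 and 69.96 CPM unstimulated and at 20.9, 7.83, 10.6 and 8.02 CPM with the combination (-2.49 ± 0.23, adjusted p = 7.8e-11). Megf10, an engulfment receptor, stood at 79.6, 51.7, 55.1 and 65 and at 46.1, 5.64, 2.49 and 2.67 CPM (-2.43 ± 0.50, adjusted p = 0.000183). Tmem119 stood at 23.5, 17.1, 15.9 and 17.5 and at 12.3, 2.76, 1.09 and 0.891 CPM (-2.27 ± 0.39, adjusted p = 1.72e-05). The combination libraries of these 3 genes lay below every unstimulated one, most closely at 2 h. Ncam1, a neural adhesion molecule, stood at 39.9, 36.6, 23.3 and 43 and at 45, 16.5, 4.5 and 1.78 CPM, with overlap at 2 h and a falling trend (-1.15 ± 0.15, adjusted p = 1.04e-05, log2 per doubling). Syt13, a synaptotagmin, fell by 1.02 ± 0.14 (adjusted p = 5.56e-07) with a trend of -0.36 ± 0.039 per doubling of the hours, Rtkn2 by 2.31 ± 0.24 (adjusted p = 4.59e-10) and Fbxo32, a ubiquitin ligase subunit, by 1.66 ± 0.12 (adjusted p = 1.95e-14). In bulk RNA, fewer cells of a type and less RNA per cell cannot be told apart.

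**Figure D4:**
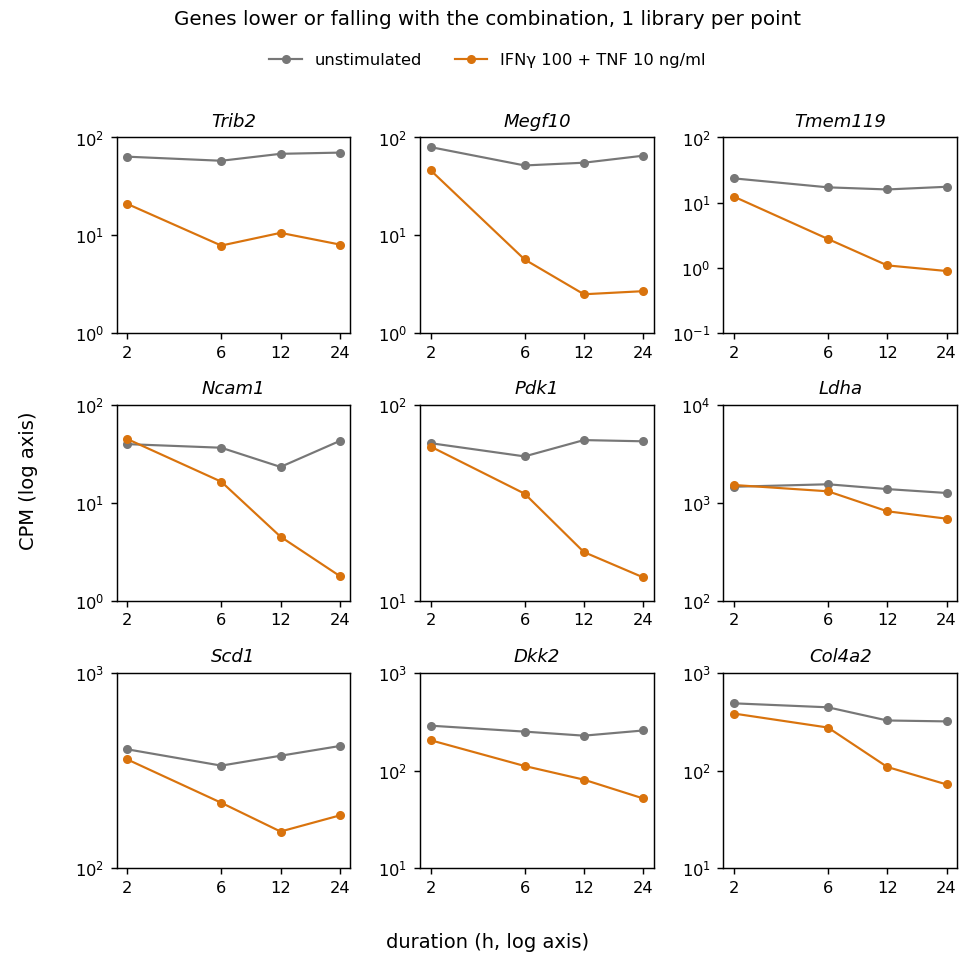
CPM on a log axis against hours (log axis) for 9 genes called lower, or with a falling trend, each point 1 library; grey, unstimulated; orange, the combination. In most panels the points lie close at 2 h and apart at 12 h and 24 h.

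Transcripts of sterol and fatty acid synthesis genes fell late. Of 34 tested genes, 27 were lower, and the list medians were -0.10, -0.30, -1.23 and -0.96. Scd1, a desaturase of fatty acids, stood at 406, 335, 376 and 422 CPM unstimulated and at 360.4, 216, 154 and 186 CPM with the combination (-0.78 ± 0.12, adjusted p = 9.13e-07). Mvk, mevalonate kinase, fell by 0.71 ± 0.13 (adjusted p = 1.61e-05) and Scd2 by 1.18 ± 0.16 (adjusted p = 2.92e-07). The number of lower genes was 7 on the 8 libraries alone and 6 within the 2 h and 6 h libraries, which between them carry each of the study's index sequences once. The mitochondrial share of counts was also lower with the combination at 6 h, 12 h and 24 h, and higher at 2 h. What part that share has in these results was not tested.

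Glycolytic and hypoxia-responsive genes moved in the same late direction, 16 of 27 lower and 5 higher, with a falling trend in 16 (8 to 16 falling over the 10 alternatives for the trend, with 8 without the 2 h libraries). In the fit of 2 h and 6 h only, 6 were higher and 1 lower, and on the 8 libraries alone 3 and 2 (2 to 6 higher and 1 to 19 lower over the 12 alternatives, with 3 higher without the 6 h libraries, 3 higher without the 24 h libraries and 7 lower without the 12 h libraries). Hk2, a hexokinase, stood at 218, 237, 228 and 183 CPM unstimulated and at 765, 570.0, 390.5 and 304 CPM with the combination, above its reference at all 4 durations and less so with each (-0.32 ± 0.048, adjusted p = 9.21e-06, log2 per doubling). Pdk1, which limits the entry of pyruvate into mitochondria, stood at 63.9, 54.7, 66.2 and 65.3 and at 61.4, 35.2, 17.7 and 13.1 CPM (-0.66 ± 0.070, adjusted p = 1.59e-08, log2 per doubling). Ldha, lactate dehydrogenase, stood at 1461, 1549, 1383 and 1262 and at 1523, 1313, 820.0 and 689 CPM (-0.28 ± 0.042, adjusted p = 1.05e-05, log2 per doubling).

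Respiratory chain genes gave calls that changed with the durations included. Of 45 nuclear genes for its subunits, 15 were lower and 1 higher, but by edgeR's test 0 in either direction on the 8 libraries alone (1 higher and 6 lower at an unadjusted p under 0.05, 1 and 12 with DESeq2 on all 48 libraries), and 0 to 24 lower over the 12 alternatives, with 24 lower without the 2 h libraries, 6 lower without the 6 h libraries, 3 lower without the 12 h libraries and 1 lower without the 24 h libraries. The mitochondrially encoded genes had medians of 0.26, -0.12, -0.049 and -0.82, with 3 of 9 lower (0 to 4 lower over the 12 alternatives, with 0 lower without the 12 h libraries and 0 lower without the 24 h libraries), beside 21.2% of all genes tested. mt-Nd1, a subunit of complex I, stood at 2292, 2319.8, 1275 and 1644 CPM unstimulated and at 2740.3, 1885, 796 and 521 CPM with the combination (-0.51 ± 0.068, adjusted p = 9.07e-06, log2 per doubling). The combination value was the higher of the pair at 2 h and the lower at the later durations.

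Amino acid stress genes rose late. Of 30 genes for amino acid supply and the integrated stress response, 22 were higher, with medians of 0.076, 0.32, 0.68 and 0.97 and a growing trend in 17 (11 higher on the 8 libraries alone, 7 with 1 lower at 2 h and 6 h only). The trend counts were 9 to 18 growing over the 10 alternatives for the trend, with 9 without the 24 h libraries. Nupr1, a stress-induced cofactor, stood at 14.5, 13.8, 23 and 35.6 CPM unstimulated and at 41.8, 31.1, 74.7 and 110.4 CPM with the combination (1.52 ± 0.15, adjusted p = 1.91e-10). Slc7a1, a transporter of arginine and lysine (chromosome 5, 148327410 to 148399904 in GRCm38), stood at 306, 229.7, 197 and 159 and at 344, 325, 363 and 381 CPM (0.73 ± 0.13, adjusted p = 2.13e-05), and its effect grew by 0.31 ± 0.037 per doubling of the hours (adjusted p = 2.15e-07). Slc3a2, the heavy chain of several amino acid transporters, stood at 240.1, 185, 171 and 154 and at 258, 262, 351 and 405 CPM (0.37 ± 0.038, adjusted p = 6.74e-09, log2 per doubling). Slc7a1 and Slc3a2 were near unstimulated cells at 2 h, where Nupr1 was already raised, and all 3 had their highest level at 24 h. Of 22 chaperones and other genes of the unfolded protein response, 8 were higher and 1 lower (1 to 11 higher over the 12 alternatives, with 5 higher without the 24 h libraries), beside 20.9% and 21.2% of all genes tested.

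Output genes of MAPK signalling, through which mutant NRAS acts, went both ways: of 24 tested, 12 were higher and 8 lower (6 to 13 higher and 4 to 8 lower over the 12 alternatives, with 4 lower without the 12 h libraries), beside 20.9% and 21.2% of all genes tested. Spry1, an inhibitor of receptor tyrosine kinases, stood at 41.6, 46.8, 32.5 and 56.7 CPM unstimulated and at 15.7, 16.2, 7.61 and 4.23 CPM with the combination (-2.04 ± 0.29, adjusted p = 5.74e-07). Dusp5, a phosphatase of nuclear ERK, stood at 116, 97.2, 107 and 100.4 and at 239, 280.0, 258 and 289.8 CPM (1.35 ± 0.11, adjusted p = 6.82e-13). Dusp6, that of cytoplasmic ERK, stood at 307, 352, 336 and 385 and at 524, 526, 505 and 499 CPM (0.58 ± 0.078, adjusted p = 1e-07). Spry1 fell while both phosphatases rose, each without overlap between groups. The ERK-induced factors Etv4 and Etv5 were lower (-0.68 ± 0.072 and -0.70 ± 0.075). Among 28 AP-1 and immediate early genes, 15 were higher and 3 lower (11 to 15 higher and 0 to 4 lower over the 12 alternatives, with 1 lower without the 6 h libraries). Atf3 rose by 2.47 ± 0.21, Zfp36, which destabilises cytokine mRNAs, by 2.34 ± 0.12, Klf4 by 0.81 ± 0.13 and Jun by 1.19 ± 0.14.

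G2 and M phase genes were mostly lower, by small amounts. Of 30 G2 and M phase genes, 18 were lower and 1 higher (median -0.25), beside 21.2% and 20.9% of all genes tested. The count was 2 to 20 lower over the 12 alternatives, with 11 lower without the 12 h libraries. On the 8 libraries alone 5 of the 30 were lower and 0 higher, beside 6.36% and 11.4%. Of 32 G1 and S phase genes, 9 were higher and 3 lower (1 to 15 higher and 1 to 3 lower over the 12 alternatives, with 4 higher without the 12 h libraries, 4 higher without the 24 h libraries and 1 lower without the 24 h libraries), beside 20.9% and 21.2% of all genes tested. On the 8 libraries alone 2 of these 32 genes were higher, beside 11.4%. Ccnd2, a D-type cyclin, rose (0.60 ± 0.088, adjusted p = 6.85e-07), and Anln, a cytokinesis protein, fell (-0.40 ± 0.079, adjusted p = 8.49e-05). The p53 and arrest list was split, 7 higher and 6 lower of 19 (5 to 9 higher and 1 to 7 lower over the 12 alternatives, with 3 lower without the 6 h libraries and 3 lower without the 12 h libraries), beside the same 20.9% and 21.2%. Cdkn1a, which encodes the CDK inhibitor p21, stood at 168, 125, 139 and 137 CPM unstimulated and at 259.8, 207, 268 and 388 CPM with the combination (0.97 ± 0.13, adjusted p = 3.1e-07), and Mdm2, a p53 target and inhibitor, rose by 0.81 ± 0.091.

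Matrix and adhesion genes fell more often than they rose, 15 lower and 7 higher of 34, beside 21.2% and 20.9% of all genes tested, with a falling trend in 14 (7 to 17 falling over the 10 alternatives for the trend, with 7 without the 24 h libraries). On the 8 libraries alone 6 were higher and 6 lower. Without a duration term, 4 were lower and 6 higher (4 to 16 lower over the 12 alternatives). Of 10 fibroblast markers, 3 of which are also on the matrix list, 5 passed the filter, 1 called lower and 2 with a falling trend. Their summed level was 402, 345, 394 and 517 CPM unstimulated and 370.4, 189, 142 and 78.9 CPM with the combination. Most of it was Col3a1, a fibrillar collagen, at 355, 299, 347 and 463 and at 310.4, 151, 99.3 and 34.2 CPM. Col1a1, Lum, Thy1, Pi16 and Dpt had at most 4 counts in any of the 8 libraries, and the part of this list in the matrix results was not tested. Tnc, which encodes tenascin C (chromosome 4, 63959785 to 64047015 in GRCm38), stood at 1716, 1428, 1880.1 and 1945 CPM unstimulated and at 1999, 3408, 5549.9 and 6119 CPM with the combination (1.21 ± 0.17, adjusted p = 6.89e-07). Lamb1, a laminin chain, stood at 684, 639.6, 692 and 684 and at 616, 516, 473 and 362 CPM (-0.47 ± 0.083, adjusted p = 1.43e-05). Col4a2, a chain of collagen IV, stood at 487, 443, 325 and 318 and at 383, 275, 109 and 72.1 CPM (-0.51 ± 0.055, adjusted p = 6.44e-08, log2 per doubling). Tnc rose and Lamb1 fell, both without overlap between groups, and Col4a2 drew apart from unstimulated cells with the hours. Among 22 proteases and inhibitors, 11 were higher and 6 lower (7 to 12 higher and 1 to 7 lower over the 12 alternatives, with 3 lower without the 12 h libraries), beside 20.9% and 21.2% of all genes tested. Mmp13, a collagenase, rose by 3.36 ± 0.41, Mmp10 by 2.04 ± 0.23 and Timp1, an inhibitor of such enzymes, by 1.23 ± 0.15.

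Developmental signalling genes went both ways: 5 lower and 3 higher of 10 Wnt and Notch genes (3 to 6 lower over the 12 alternatives), and 8 lower and 5 higher of 22 TGF-β and Id genes (the latter 2 to 5 higher and 3 to 11 lower over the 12 alternatives, with 3 higher without the 12 h libraries), beside 20.9% higher and 21.2% lower of all genes tested. Jag1, a Notch ligand, stood at 93.1, 88.7, 98.7 and 119 CPM unstimulated and at 51.6, 37.4, 31.7 and 39.1 CPM with the combination (-1.32 ± 0.12, adjusted p = 3.18e-11). Dkk2, a Wnt antagonist, stood at 288, 250.1, 227 and 257 and at 204, 111, 80.6 and 51.8 CPM (-1.29 ± 0.18, adjusted p = 6.5e-07), and its effect moved by -0.48 ± 0.061 per doubling of the hours (adjusted p = 1.7e-06). Notch1, a receptor of Jag1, rose by 1.9 ± 0.16, and Inhba, a chain of activin A, by 1.56 ± 0.16, while Tgfb3 was lower (-0.65 ± 0.13). Of the clock genes, 6 of 14 were lower and 1 higher (2 to 5 lower over the 12 alternatives), with Dbp, an output factor of the clock, at 14.5, 15.1, 8.84 and 23.2 CPM unstimulated and at 7.83, 3.91, 4.35 and 8.13 CPM with the combination (-1.37 ± 0.27, adjusted p = 7.26e-05).

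Lineage genes gave few values. Of 21 listed melanocyte genes, 7 passed the filter, 1 higher and 2 lower (0 to 2 higher and 0 to 2 lower over the 12 alternatives, with 2 higher without the 2 h libraries, 0 higher without the 24 h libraries, 1 lower without the 6 h libraries and 1 lower without the 24 h libraries). Of 20 dedifferentiation and mesenchymal genes, 9 were higher and 2 lower (3 to 10 higher and 0 to 2 lower over the 12 alternatives, with 0 lower without the 6 h libraries, 0 lower without the 12 h libraries and 1 lower without the 24 h libraries). Both counts stand beside 20.9% higher and 21.2% lower of all genes tested. On the 8 libraries alone 3 of the 20 were higher and 0 lower, beside 11.4% and 6.36%. Cdh2, which encodes N-cadherin, rose by 0.36 ± 0.059 and Zeb2 by 0.90 ± 0.095.

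The combination differed from each cytokine alone. Against IFNγ at 100 ng/ml, 1036 genes (8.49%) were higher and 661 (5.42%) lower, and against TNF at 10 ng/ml 1113 (9.12%) were higher and 591 (4.84%) lower. Both comparisons share the combination libraries and are not independent. Igtp stood at 803, 1133, 1019 and 937 CPM with IFNγ and at 93.2, 234, 332 and 231 CPM with TNF, and the combination exceeded TNF (2.36 ± 0.28, adjusted p = 1.23e-07). By edgeR's test, 0 of the 11 immunity-related GTPases and 0 of the 13 Ifit and Oas genes were called above IFNγ (0 and 1 at an unadjusted p under 0.05, 0 and 0 with DESeq2), and all 11 of the former stood above TNF. In lists this short, 0 is near the 8.49% of all genes called above IFNγ. Other interferon lists differed: 4 of 10 Gbp, 7 of 12 MHC class I chain, 3 of 9 loading and 8 of 35 Parp, Trim, Slfn and Apol genes were above IFNγ. Of the immunoproteasome genes 0 of 7 were, and of Mx, Ifitm and other effectors 1 of 27. Nfkb2 stood at 73, 85.3, 104 and 109 CPM with IFNγ and at 234, 239.5, 270.0 and 214 CPM with TNF, and the combination exceeded IFNγ (1.6 ± 0.14, adjusted p = 1.89e-10).

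A number of genes stood above both. Ccl5 was at 11.8, 9.7, 69.8 and 147 CPM with IFNγ and at 25.3, 58.1, 289.9 and 262 CPM with TNF, and the combination was higher by 3.81 ± 0.55, adjusted p = 6.25e-06 and by 2.37 ± 0.51, adjusted p = 0.00117, the latter not called within the 2 h and 6 h libraries (adjusted p = 0.201), with the compared groups alone (0.0625) and without a duration term (0.0792). Vcam1 was at 13.1, 20.4, 20.4 and 14.3 and at 119.9, 125, 85.4 and 60.6 CPM, and the combination was higher by 3.72 ± 0.36, adjusted p = 1.56e-09 and by 1.24 ± 0.30, adjusted p = 0.0042, the latter not called within the 2 h and 6 h libraries (adjusted p = 0.105), without a duration term (0.21), with the 6 h libraries left out (0.0686) and with the 12 h libraries left out (0.0773). Sod2 was at 61.9, 52.7, 46.7 and 38.1 and at 77.5, 87.4, 89.96 and 73.7 CPM, and the combination was higher by 1.71 ± 0.087, adjusted p = 4.1e-18 and by 0.97 ± 0.084, adjusted p = 1.66e-11. All 5 T cell chemokines stood above IFNγ and, separately, above TNF. Acod1 was at 8.39, 6.79, 30.5 and 46 CPM with IFNγ and at 34.7, 39, 191 and 256 CPM with TNF, against 104, 316, 1138 and 1574 CPM with both. Nos2 was at 0, 0, 0.284 and 0.264 and at 0, 0.366, 0.294 and 0.144 CPM, against 2.47, 24.9, 19.7 and 35.6 CPM with both.

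**Figure D5:**
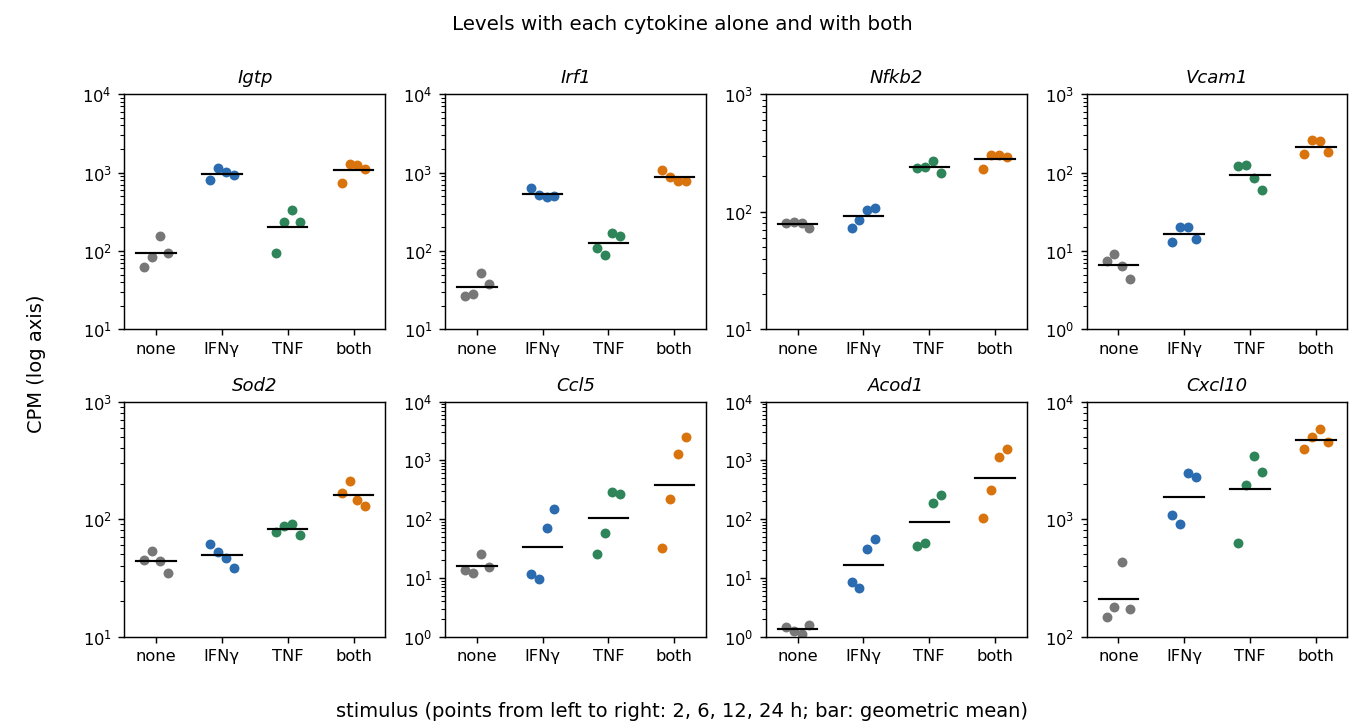
CPM on a log axis for 8 genes in unstimulated cells, with IFNγ at 100 ng/ml, with TNF at 10 ng/ml and with both; the 4 points per condition are the libraries of 2, 6, 12 and 24 h and the bar is their geometric mean. The points for Igtp with IFNγ and with both overlap, 3 of the 4 points for Nfkb2 with both lie above all of those with TNF, and Ccl5, Vcam1 and Sod2 are highest with both.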

How the data were processed

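Raw read counts per gene were deposited by the authors as 1 table of 49671 genes and 48 libraries. Reads were aligned with HISAT to GRCm38, per the submitters' processing notes. The versions, the counting tool, its annotation and its use of strand were not given in the sources used here, so antisense partners, overlapping genes and near-identical copies (204 genes share a symbol) are uncertain. No label says that libraries came from separate cultures. Libraries of 1 stimulus at 4 durations served as replicates. A p-value therefore measures how far differences between stimuli vary over the durations, pooled over all stimuli, and for trends how far they vary around the fitted trends. That spread mixes changes over time with differences that may be technical.

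Counts were tested in R 4.3.3 with edgeR 4.0.16 (quasi-likelihood, robust, TMM scaling, filterByExpr with a minimum count of 10 and a minimum total of 15, 12203 genes tested) on all 48 libraries with stimulus and duration as terms (33 residual degrees of freedom). Trends used stimulus by log2 hours (22). The duration term blocks on the label that libraries of 1 duration share. Calls had a Benjamini-Hochberg adjusted p under 0.05. Standard errors are the log2 difference divided by the root of F. Ratios at 1 duration used a prior count of 2 and have no test. Floors of 3 counts and 95% intervals cover counting error only.

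Simulated counts gave each gene 1 mean scaled to the library totals and 1 fixed dispersion, with changes only in the combination. They held no effect of duration or of the other stimuli, which the real libraries do, so the rates below do not carry over to these data. For the comparison with unstimulated cells, 83% of genes changed 2-fold and 98% of those changed 4-fold were recovered. There were 12 false calls in a run of 12004 genes, the changed ones included. For the trend, 60% and 94% of slopes of 0.5 and 1 were recovered, with 2 false calls in a run of 12009 genes, the changed ones included.

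Members and gene lists were chosen with earlier results of these data known. Named genes were the 10 largest called increases and decreases with a log2 difference of at least 1 and 1 sign at 4 durations, the 10 largest trends, gains or losses in mean CPM and single-duration ratios each way, and list members, without predicted genes. Those printed were picked after their values were seen, with a preference for calls that held. Promoters came from RefSeq (GRCm38.p6), where 25 of 35 genes looked up matched. Alternatives were DESeq2 1.42.0, size factors, no filter, the compared groups alone, no duration term, IL-2 libraries as reference, early or late durations, each duration left out, linear hours and a prior count of 0.5.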

Additional observations from a re-analysis of the deposited data

Results flagged for a closer look

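Of 153 groups of 4 values examined (the 4 ratios of each printed gene, and measures of library quality), 11 held a value far from the other 3, each a log2 ratio of combination to unstimulated at 1 duration. Chance gives about 1 such value in 20 groups of 4, and the durations are not interchangeable replicates. At 2 h the ratio stood apart for 8 genes. It was 2.53 for C1s1, a complement protease, 2.65 for the chemokine Ccl7 and 2.46 for Il1rn, the IL-1 receptor antagonist. It was 2.71 for Il6 and 1.33 for Lif, 2 cytokines of the gp130 receptor. It was 1.01 for the proteasome activator Psme2, 0.90 for the granzyme inhibitor Serpinb9 and -0.91 for Rtkn2. At 12 h the ratio stood apart for 3 genes, at 6.27 for Ccrl2, an atypical chemokine receptor, 3.73 for the chemokine Cxcl10 and 0.79 for Jun, a subunit of AP-1. The unstimulated library at 12 h had the raised interferon genes described in the report, and its part in the Cxcl10 value was not tested.

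The report prints the trend of 13 genes, picked from the 2125 with a called trend, and further printed genes had one as well. For these 13 the effect of the combination changed with time by edgeR's quasi-likelihood test of the slope, given here as the change in log2 ratio per doubling of time. The slope was positive for Ccl5, a chemokine for T cells, at 1.66, for Il1rl1, the IL-33 receptor, at 0.67, and for the amino acid transporters Slc3a2 at 0.37 and Slc7a1 at 0.31. It was negative for Irf8, an interferon-regulated transcription factor, at -1.09 and for the adhesion molecule Ncam1 at -1.15. Of the glycolysis genes it was -0.66 for Pdk1, -0.32 for Hk2 and -0.28 for Ldha. It was -0.51 for the collagen gene Col4a2, -0.48 for Dkk2, a secreted modulator of Wnt signalling, -0.36 for Syt13, a synaptotagmin, and -0.51 for mt-Nd1, a mitochondrially encoded subunit of complex I.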

How the results depend on the processing

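The combination was called against unstimulated cells in 5129 genes, 2546 higher and 2583 lower. The count was 1853 (1255 higher and 598 lower) with only the 2 h and 6 h libraries, 2024 (1301 and 723) with the 8 libraries alone and 2388 (1469 and 919) without the duration term, the block that pairs libraries of 1 duration. With 1 duration left out it ran from 3436 to 5701. Trends over time fell from 2125 genes to 746 on the 8 libraries alone and ran from 700 (without 24 h) to 2266 (without 6 h) with 1 duration left out, with 858 without 2 h. Against IFNγ alone the count was 1697, and it was 413 with only 2 h and 6 h, 1053 on the compared groups alone, 350 without the duration block and 643 (without 12 h) to 2342 (without 2 h) with 1 duration left out, with 718 without 6 h and 1044 without 24 h. Against TNF alone it was 1704, with 455, 1068 and 426 under the same settings and 786 (without 12 h) to 2461 (without 2 h) with 1 duration left out, 810 without 6 h and 950 without 24 h. Lower calls alone moved by over 1.5 times in 7 further settings. Against unstimulated cells they were 1522 without 12 h and 1574 without 24 h. Against IFNγ they went from 661 to 1016 without 2 h and 352 without the filter, and against TNF from 591 to 1061 without 2 h, 916 with only 12 h and 24 h and 286 without the filter. Counts of higher or lower genes within lists moved by over 1.5 times in 222 of 936 cases and trend counts in 254 of 670, and the report gives ranges for the main ones. The cause of these moves was not tested. Cx3cl1 changed sign within the 12 h and 24 h libraries, at -0.99 (adjusted p = 0.0285, edgeR); the cause was not tested. Of 123 genes printed with a called log2 difference from unstimulated cells, 122 were called in every alternative run, but calls that held were preferred when genes were picked, so that count is no evidence of stability. At these depths a gene with under 3 counts in a library had no measurable level there.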

Other observations

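Several kinases and pseudokinases of cytokine signalling, a group not described above, moved as well. Of 13 tested, 8 were higher and 2 lower by edgeR's quasi-likelihood test, beside 20.9% and 21.2% of all genes tested. Over the 12 alternatives 5 to 8 were higher and 1 to 2 lower. Trib1, a pseudokinase, stood at 88.4, 93.4, 90.5 and 88.8 CPM unstimulated and at 185, 213, 147 and 219 CPM with the combination, a log2 difference of 1.08 ± 0.093, adjusted p = 3.27e-12. Pim1, a kinase gene known as a target of STAT factors, rose by 1.73 ± 0.12, adjusted p = 2.47e-14, and Tbk1, a kinase of innate sensing, by 0.83 ± 0.073, adjusted p = 5.51e-12.

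The 3 genes that follow, chosen after their values were seen, were almost uncounted in unstimulated cells. Il23r, a chain of the IL-23 receptor, had 2 counts over the 4 unstimulated libraries and 282 over the 4 combination libraries (132-fold, 95% interval 36.2 to 1095, Poisson counting error only). Krt16, an epithelial keratin, had 1 count and 449 counts, and Ptx3, a secreted pattern recognition protein, 1 count and 115 counts.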
